A study of Mus musculus with 24 samples.

Results

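The extracellular matrix and contractile genes of fibroblasts were followed through 7 lists of chromatin peaks from mouse limb buds and from NIH3T3 cells, an established mouse embryonic fibroblast line. The list holds 43 named genes of 21938 protein-coding genes in the GENCODE annotation, covering collagens, fibronectin, elastic fibre proteins, crosslinking enzymes, matricellular proteins, proteoglycans, contractile and cytoskeletal genes and regulators of matrix turnover. A gene's window was its body with 20 kb on either side, and every peak that touched the window was counted, with the bases it covered inside the window. All 43 windows held an H3K27ac peak in the NIH3T3 control or the WT limb list.

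The study profiled histone marks by ChIP-seq (chromatin immunoprecipitation followed by sequencing) to ask how Hedgehog (HH) signaling acts on enhancers. It deposited 14 ChIP libraries and 10 inputs, and the peaks of each condition were called by the authors from its 2 replicates together. Limb samples were E10.5 forelimb buds (32 to 35 somites, Swiss Webster) that were WT or Shh-/-, with about 400000 cells per ChIP, and were profiled for H3K27ac and H3K4me2 in both genotypes and, in the samples used here, for H3K27me3 in Shh-/- only. NIH3T3 cells were kept in low serum and then given 400 nM purmorphamine, which switches on the HH pathway by activating Smoothened, or DMSO as control for 48 h, and were profiled for H3K27ac. The labels of both NIH3T3 groups also name LIF, which their treatment protocol does not. Forelimb buds of several litters were pooled, the Shh-/- embryos carried the null allele in all their cells, and the WT group mixed wild-type embryos with heterozygous littermates. The limb and NIH3T3 H3K27ac samples differ in tissue, antibody, cell number and length of the peak list at once, and the parts of these in any difference between limb and NIH3T3 cannot be told apart.

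H3K27ac marks active promoters and enhancers, H3K4me2 marks promoters and enhancers whether or not they are active, and H3K27me3 is laid down by Polycomb at silenced genes. Fibroblasts secrete the collagen, fibronectin and elastin scaffold of connective tissue, crosslink it with lysyl oxidases and pull on it with actin filaments, and serum response factor (through the CArG box), AP-1 and TEAD factors are known regulators of many of these genes. Limb bud mesenchyme is the embryonic tissue from which limb fibroblasts, cartilage and tendon later arise.

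The lists differed in length. They held 49679 peaks in WT and 43916 in Shh-/- limb H3K27ac, 36613 and 38497 in the corresponding H3K4me2 lists, 20846 in H3K27me3, 91023 in NIH3T3 control and 87809 with purmorphamine, and they give no read counts. The depth of each library is therefore unknown from these files, although the study's methods state a minimum number of reads per sample. All peaks of the WT limb H3K27ac list and of both NIH3T3 lists had an FDR under 0.05, as did 87.5 to 94.1% of the other limb H3K27ac and H3K4me2 peaks and 47.2% of the H3K27me3 peaks, whose highest FDR was 0.255. The promoters of all 5 limb mesenchyme markers (Tbx5, Prrx1, Hand2, Lmx1b, Msx1) carried WT limb H3K27ac and 1 of the 5, Prrx1, carried it in NIH3T3 control. Of 5 fibroblast markers, 3 were acetylated at the promoter in WT limb (Pdgfra, Pdgfrb, Twist2) and all 5 in NIH3T3 control, while none of 5 blood, 5 ectoderm or 5 smooth muscle markers and 1 of 5 endothelial markers (Cdh5) were in WT limb. At the HH target Gli1, chosen after its values were seen, H3K27ac covered 1550 bp of the window in control and 9200 bp with purmorphamine, and 2800 bp in WT and 200 bp in Shh-/- limb.

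A promoter was taken as 2 kb before to 1 kb after the start of the gene. RefSeq promoter sequences (GRCm38.p6) were matched for 27 of the 43 genes, with Col1a1 and Loxl1 not among them. The 250 bases before the start are shown for 6 matched genes acetylated at the promoter in NIH3T3 control and not in WT limb. Of such genes, these 6 had the largest excess of NIH3T3 control over WT limb H3K27ac, in covered bp of the whole window and not of the promoter alone. They are Fbn1 (chr2:125506439-125506688, minus strand), S100a4 (chr3:90603520-90603769, plus strand), Thbs2 (chr17:14694263-14694512, minus strand), Bgn (chrX:73483351-73483600, plus strand), Col6a1 (chr10:76726045-76726294, minus strand) and Col6a2 (chr10:76623631-76623880, minus strand). The windows and promoters of all other results start from the GENCODE gene record. The RefSeq start lay within 124 bp of it for the genes shown, except for Fbn1, where it lay 1555 bp inside the gene record. A promoter drawn around that RefSeq start held an H3K27ac peak in WT limb too, so Fbn1 belongs to the set by the GENCODE start alone. Myl9 (chr2:156775214-156775463, plus strand) was added as the 1 matched gene with a CArG box in these bases. Capitals mark any match, on either strand, to a CArG box, TGACTCA or its reverse complement TGAGTCA (the AP-1 site), GGAATG (TEAD), GACCACCCA (GLI) or TATAAA.
Fbn1: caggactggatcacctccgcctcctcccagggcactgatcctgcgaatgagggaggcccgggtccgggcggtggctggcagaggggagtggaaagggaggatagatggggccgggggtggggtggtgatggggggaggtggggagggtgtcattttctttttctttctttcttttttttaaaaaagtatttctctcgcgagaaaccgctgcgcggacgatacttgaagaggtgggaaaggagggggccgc
S100a4: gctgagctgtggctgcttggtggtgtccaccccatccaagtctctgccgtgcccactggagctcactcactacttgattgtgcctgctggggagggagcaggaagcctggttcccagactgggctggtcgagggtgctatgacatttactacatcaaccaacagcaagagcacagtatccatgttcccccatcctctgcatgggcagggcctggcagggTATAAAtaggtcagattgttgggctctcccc
Thbs2: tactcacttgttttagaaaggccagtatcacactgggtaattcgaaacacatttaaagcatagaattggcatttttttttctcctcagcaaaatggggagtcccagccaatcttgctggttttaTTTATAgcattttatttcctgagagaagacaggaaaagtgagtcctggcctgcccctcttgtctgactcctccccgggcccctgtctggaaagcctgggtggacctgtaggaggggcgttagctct
Bgn: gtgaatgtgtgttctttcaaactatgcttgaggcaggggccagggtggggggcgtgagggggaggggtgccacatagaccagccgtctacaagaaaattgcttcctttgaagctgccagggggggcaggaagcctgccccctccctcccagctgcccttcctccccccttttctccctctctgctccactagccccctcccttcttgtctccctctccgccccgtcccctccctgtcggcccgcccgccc
Col6a1: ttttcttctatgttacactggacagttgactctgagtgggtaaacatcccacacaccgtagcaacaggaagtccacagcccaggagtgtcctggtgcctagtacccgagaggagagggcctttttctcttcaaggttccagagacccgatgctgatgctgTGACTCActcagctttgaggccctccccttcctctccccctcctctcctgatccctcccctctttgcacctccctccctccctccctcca
Col6a2: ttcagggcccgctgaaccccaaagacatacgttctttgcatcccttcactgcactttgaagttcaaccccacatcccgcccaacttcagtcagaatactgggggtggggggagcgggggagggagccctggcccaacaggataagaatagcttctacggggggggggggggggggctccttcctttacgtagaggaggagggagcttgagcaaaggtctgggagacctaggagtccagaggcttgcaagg
Myl9: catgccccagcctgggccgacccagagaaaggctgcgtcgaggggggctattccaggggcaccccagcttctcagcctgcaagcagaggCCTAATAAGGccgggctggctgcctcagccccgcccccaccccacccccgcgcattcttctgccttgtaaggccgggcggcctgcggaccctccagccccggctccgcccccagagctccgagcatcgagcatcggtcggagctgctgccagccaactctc
The TATAAA of S100a4 began 31 bases before the start and that of Thbs2 126 bases before it. The AP-1 site of Col6a1 began 90 bases and the CArG box of Myl9 161 bases before the start, and the other 3 sequences held none of the motifs. Over the 27 matched promoters, TATAAA was present in 7 (25.9%; 13.0% of all 27025 promoters in the table) and GGAATG in 5 (18.5%; 12.6%). An AP-1 site was present in 1 (3.70%; 4.43%), a CArG box in 1 (1.40% of all promoters) and GACCACCCA in none (0.211%). No match says only that these letters are not in the 250 bases.

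H3K27ac cover of the 43 windows was far larger in NIH3T3 cells than in limb buds. The median window was covered over 2.13% of its length in WT limb, 1.41% in Shh-/- limb, 12.9% in NIH3T3 control and 14.2% with purmorphamine, against 0.733%, 0.485%, 2.50% and 2.29% over all protein-coding genes. Ratios were taken as log2 of covered bp plus 500 bp in one list over the same in the other. NIH3T3 control over WT limb had a median log2 ratio of 2.48 (95% interval of the median 1.53 to 3.11, 43 genes), against 0.98 over the 16556 genes with a peak in either list. This interval, here and below, describes the spread over genes and not between replicates. At least 2-fold more bases were covered in NIH3T3 control for 32 of the 43 genes, where the background was 49.5% of genes, and at least 2-fold fewer for 3 genes, where it was 6.39%. The peak lists used here pool the replicates of a condition, so they hold no spread between replicates and these differences were not tested here. In bulk samples, fewer cells of a type and a lower level per cell cannot be told apart.

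**Figure D1:**
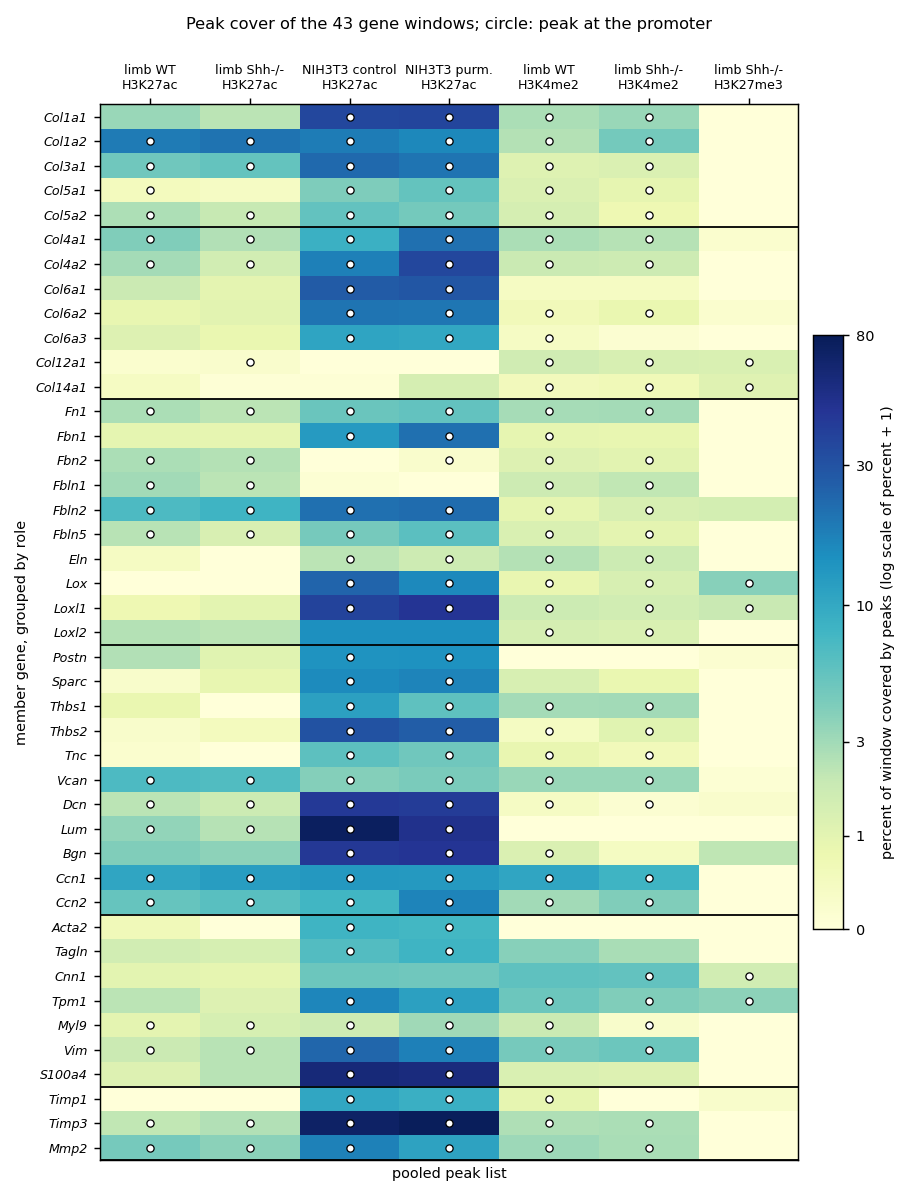
Percent of each gene window covered by peaks, on a log scale of percent + 1, for the 43 genes (rows, grouped by role) in the 7 pooled lists (columns), with a circle where a peak lies at the promoter. Most rows are darker in both NIH3T3 columns than in the limb columns, and Fbn2, Fbln1, Col12a1 and Col14a1 are pale in NIH3T3 control.

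The fibrillar collagens, which form the tensile fibres of connective tissue, were acetylated in both cell types, Col1a1 being the exception at its promoter. Col1a1 and Col1a2, the chains of type I collagen, differed from each other in the limb. Col1a1 (chr11) had 1850 covered bp in WT limb, 1300 in Shh-/- limb, 19826 in NIH3T3 control and 20676 with purmorphamine, and its nearest limb H3K27ac peak was 5875 bp from the start. Col1a2 (chr6) had 14431, 15581, 14136 and 12286 covered bp in the same order, a log2 ratio of -0.03 for NIH3T3 control over WT limb. Most of its limb cover came from 1 peak of 8600 bp, at chr6:4553550-4562149 between genes and 48736 bp past the Col1a2 start, which lay 30901 bp from the nearest NIH3T3 control peak and ranked 239 in the WT limb list. As a share of the window, H3K27ac covered 34.9% for Col1a1 and 18.4% for Col1a2 in NIH3T3 control, and 3.26% and 18.8% in WT limb. So Col1a1 had the larger share in NIH3T3 cells and Col1a2 in the limb bud.

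Col3a1, the type III chain, had 3800, 4350, 17700 and 15550 covered bp. Col5a1 and Col5a2, whose products start fibril assembly, had 850, 650, 8250 and 10800 bp and 4450, 3300, 9550 and 8000 bp. The windows of Col3a1 and Col5a2 overlap, so these genes share peaks. Of the 5 fibrillar collagens, 4 had at least 2-fold more covered bp in NIH3T3 control than in WT limb and none had 2-fold fewer. The shares of all genes with a peak in either list were 49.5% and 6.39%.

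Among the other collagens, the type VI genes had little limb H3K27ac and the basement membrane genes a moderate amount. Col6a1, Col6a2 and Col6a3, the chains of beaded microfibrils, had 1050, 600 and 1400 covered bp in WT limb and none at the promoter. In NIH3T3 control they had 15250, 13731 and 12650 bp, with a peak at each promoter, and log2 ratios of 3.35, 3.69 and 2.79. Col4a1 and Col4a2, the type IV chains of basement membranes, are read in opposite directions from a common start region and were acetylated at it in all 4 H3K27ac lists, with 6450 and 5200 bp in WT limb and 13400 and 31250 bp in NIH3T3 control. Col12a1 and Col14a1, which decorate the surface of fibrils, were at the other end. Col12a1 had 250 bp in WT limb and no peak in either NIH3T3 list, and Col14a1 had 900 bp in WT limb and 150 bp in NIH3T3 control, a log2 ratio of -1.11.

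Fibronectin, the elastic fibre genes and their crosslinking enzymes were split. Lox and Loxl1, which crosslink collagen and elastin, were among the 5 genes with the largest ratios. Lox had no H3K27ac peak in either limb list and 12983 bp in NIH3T3 control, of which 1 peak of 5900 bp ranked 185 in that list and lay 34201 bp from any WT limb peak. Loxl1 had 450 bp in WT limb, 650 in Shh-/- limb, 24150 in NIH3T3 control and 29500 with purmorphamine. Loxl2, from the same family, had 3100 and 18600 bp in WT limb and NIH3T3 control, with no promoter peak in any of the 4 H3K27ac lists.

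Fbn1 and Fbn2, the fibrillins of microfibrils, had opposite patterns. Fbn1 had 2300, 2250, 30650 and 52206 covered bp in WT limb, Shh-/- limb, NIH3T3 control and purmorphamine. Fbn2 had 6500, 6000, 0 and 500 bp, and its WT limb promoter peak of 1700 bp ranked 1868 and lay 204951 bp from the nearest NIH3T3 control peak. The log2 ratios of NIH3T3 control over WT limb were 3.48 for Fbn1 and -3.81 for Fbn2, the lowest of the 43 genes. Fibulins differed in the same way. Fbln1, a fibulin of basement membranes and elastic fibres, had 3600, 2750, 100 and 0 bp, while Fbln2 had 7050, 8200, 21295 and 21795 bp. The promoter peak of Fbln2, 15500 bp wide and at rank 146, was the best-ranked purmorphamine peak in the 43 windows. Fbln5, needed for elastic fibre assembly, had 2650, 1500, 5150 and 6900 bp. Eln, which encodes elastin, had 300 bp in WT limb, none in Shh-/- limb and 1950 bp in NIH3T3 control. Fn1, fibronectin itself, had 2900, 2450, 5650 and 6100 bp, and its promoter peak was the best-ranked of all peaks in the 43 windows in both limb H3K27ac lists (rank 138 in WT and 80 in Shh-/-).

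Matricellular proteins signal between matrix and cell, and for Thbs2, Sparc, Tnc, Postn and Thbs1 at least 2-fold more bases were covered in NIH3T3 control than in WT limb. Thbs2, a thrombospondin, had the highest log2 ratio of all 43 genes, 5.04, with 150 bp in WT limb, 300 in Shh-/- limb, 20950 in NIH3T3 control and 18100 with purmorphamine. Sparc, a collagen-binding protein, had 150, 600, 10600 and 11450 bp. For both genes the NIH3T3 values lay far above either limb value. Tenascin C (Tnc) had 200, 0, 7700 and 6300 bp and periostin (Postn) 1750, 750, 9750 and 9900 bp. Thbs1 had 450, 0, 6274 and 3250 bp. None of these 5 genes had a promoter H3K27ac peak in limb buds, and all 5 had one in NIH3T3 control and with purmorphamine.

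Ccn1 and Ccn2, early genes induced by TEAD and serum response factors, did not share this pattern: Ccn1 had 4500, 5150, 5550 and 5500 bp and Ccn2 2350, 2700, 3400 and 7300 bp, with promoter peaks in all 4 lists. Vcan, the large proteoglycan versican of embryonic mesenchyme, had more covered bp in limb than in NIH3T3 cells, 9050 and 8550 against 5100 and 5600. The small leucine-rich proteoglycans were the reverse. Decorin (Dcn) had 1800, 1400, 33135 and 31794 bp, lumican (Lum) 1650, 1150, 35004 and 23104 bp, and biglycan (Bgn) 2150, 1900, 22350 and 23650 bp. H3K27ac covered 73.6% of the Lum window in NIH3T3 control, including a peak of 15400 bp past the 3′ end of the gene. Of the 11 genes with these roles, 8 had at least 2-fold more covered bp in NIH3T3 control (49.5% of all genes with a peak in either list). None had 2-fold fewer (6.39%).

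The contractile and cytoskeletal genes other than S100a4, Vim and Tpm1 had at most 4500 covered bp in NIH3T3 control, against a median of 11050 bp over the 43 genes. The windows of the 7 genes with these roles were shorter, with a median of 48900 bp against 69929 bp. As a share of the window, their median cover was 8.26% against 12.9%. Smooth muscle actin (Acta2) had 300, 0, 4500 and 4200 bp and transgelin (Tagln) 750, 650, 3100 and 3800 bp, with promoter H3K27ac in NIH3T3 lists only. Calponin (Cnn1) had 500, 450, 2600 and 2500 bp and no promoter peak in any of the 4 H3K27ac lists. Tropomyosin (Tpm1) had 1550, 800, 11050 and 7550 bp and myosin light chain 9 (Myl9) 450, 650, 800 and 1400 bp, the latter with promoter peaks throughout. Myl9 had the lowest ratio of NIH3T3 control over WT limb among the 7 genes, 0.45 on the log2 scale. Vimentin (Vim), the intermediate filament of mesenchyme, had 900, 1150, 11450 and 8623 bp. S100a4, a calcium-binding protein used as a fibroblast marker, had 500, 1000, 24929 and 23779 bp, and its peak of 11700 bp ranked 14 in the NIH3T3 control list, the best of all peaks in the 43 windows. That peak also covers the start of S100a5, and 4 other protein-coding starts lie in the S100a4 window. All 7 genes had more covered bp in NIH3T3 control than in WT limb, 6 of them by at least 2-fold. Of the 16556 genes with a peak in either list, 13849 had more, and 49.5% had at least 2-fold more.

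Of the genes of matrix turnover, Timp3, an inhibitor of metalloproteinases bound to matrix, had 1900, 2250, 62785 and 67985 covered bp, or 70.4% of its window in NIH3T3 control. Timp1, a secreted inhibitor, had no limb H3K27ac peak in either genotype, 4600 bp in NIH3T3 control and 4000 with purmorphamine. Mmp2, a gelatinase, had 3050, 2450, 11500 and 7250 bp.

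**Figure D2:**
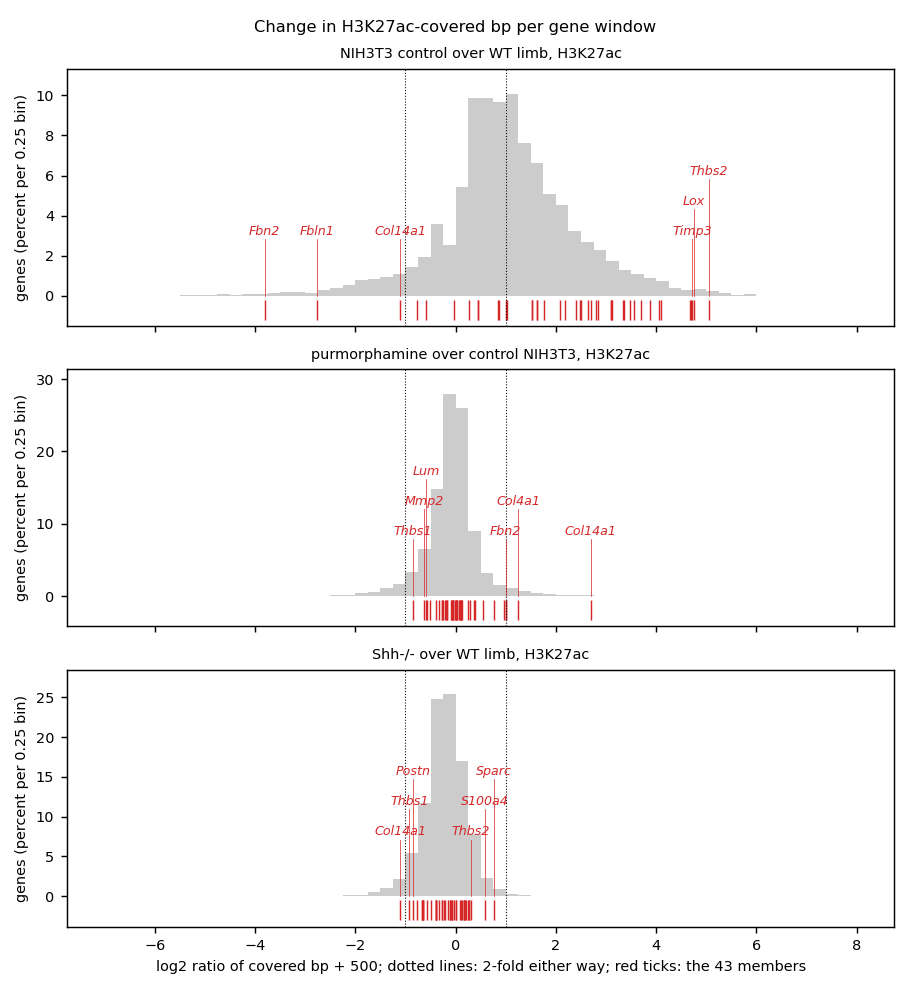
Grey bars show the percent of genes per 0.25 bin of log2 ratio of H3K27ac-covered bp (plus 500 bp) for each of 3 comparisons of pooled lists, and red ticks below 0 mark the 43 genes, with the 3 highest and 3 lowest named. The ticks are spread to the right of the grey distribution for NIH3T3 control over WT limb, from -3.81 (Fbn2) to 5.04 (Thbs2), and lie mostly within 2-fold in the other comparisons.

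At promoters, 20 of the 43 genes had H3K27ac in WT limb (41.4% of all genes did) and 37 in NIH3T3 control (50.7%). A promoter peak in NIH3T3 control and not in WT limb was found for 19 genes, against a background of 12.2%: Col1a1, the 3 type VI collagens, Fbn1, Eln, Lox, Loxl1, Postn, Sparc, Thbs1, Thbs2, Tnc, Bgn, Acta2, Tagln, Tpm1, S100a4 and Timp1. With a promoter taken at the start of any annotated transcript, Fbn1 and Tpm1 left this set, and 17 genes remained. The reverse was found for 2 genes, Fbn2 and Fbln1, against 2.91%. A further 18 genes had a promoter peak in both lists, 4 of the 5 fibrillar collagens among them, and Col12a1, Col14a1, Loxl2 and Cnn1 in neither.

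At promoters acetylated in NIH3T3 control and not in WT limb, WT limb H3K4me2 was no more frequent than over all genes with that pattern. Of the 19 genes acetylated at the promoter in NIH3T3 control and not in WT limb, 13 had a WT limb H3K4me2 peak there (68.4%; 77.7% of the 2676 genes of all with this pattern). The 6 without it were Col6a1, Postn, Sparc, Acta2, Tagln and S100a4. H3K4me2 cover itself was not larger than elsewhere, with a median of 1.46% of the window in WT limb against 1.84% over all genes. Postn, Lum and Acta2 had no H3K4me2 peak in their windows in either genotype, although Lum had promoter H3K27ac in both limb lists. The best-ranked H3K4me2 peaks in the 43 windows overlapped an exon of Vim in WT (1700 bp wide, 73 bp past the start, rank 311) and lay near the start of Fbn1 in Shh-/- (2000 bp wide, 1144 bp past the start, rank 56).

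H3K27me3 in Shh-/- limb was found in 14 of the 43 windows (background 36.9%) and at 6 promoters (background 12.2%), shares close to those of all genes. With H3K27me3 peaks of FDR under 0.05 alone, the windows were 10 (25.0% of all genes) and the promoters the same 6 (10.1%), and Col4a1, Postn, Vcan and Timp1 dropped out. The promoters were those of Col12a1, Col14a1, Lox, Loxl1, Cnn1 and Tpm1, with 2050, 2850, 2100, 1250, 800 and 2450 covered bp in the window. Lox, Loxl1 and Tpm1 were acetylated at the promoter in NIH3T3 control, and the other 3 were not. All 6 carried H3K4me2 at the promoter in Shh-/- limb, and Col12a1 also carried H3K27ac there. In pooled bulk tissue, both marks on 1 promoter and different cells with 1 mark each cannot be told apart. The best-ranked H3K27me3 peak in the 43 windows, at rank 1011, lay in the Bgn window, over an exon of the neighbouring gene Atp2b3. None of the 5 fibrillar collagen windows held an H3K27me3 peak.

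Most of these windows had similar cover in control and with purmorphamine. The median log2 ratio of purmorphamine over control was -0.0022 (95% interval of the median -0.09 to 0.11, 42 genes with a peak), against -0.07 over 15700 genes. At least 2-fold more bases were covered for 4 genes, where the background was 3.12% of genes, and at least 2-fold fewer for none, where it was 4.67%. No gene lost its promoter peak (background 1.41%), and 1, Fbn2, gained one (background 1.50%). The same 37 promoters acetylated in control were acetylated with purmorphamine, Col1a1, Fn1, Acta2, Tagln and Timp1 among them.

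The 4 genes with at least 2-fold more cover were Col14a1, Col4a1, Ccn2 and Fbn2. Col14a1 had 1 peak of 150 bp in control and 13 peaks covering 3700 bp with purmorphamine (log2 ratio 2.69), none of them shared, and no promoter peak in either list. The best of the 13 ranked 18831 of 87809. Fbn2 had no peak in control and 3 peaks covering 500 bp with purmorphamine, the best at rank 45173, so its 2-fold ratio rests on peaks far down the list.

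Cover of the Col4a1 and Col4a2 pair was wider with purmorphamine across both gene bodies. Col4a1 had 13400 bp in 18 peaks in control and 32600 bp in 37 peaks with purmorphamine (log2 ratio 1.25), and Col4a2 31250 bp in 39 peaks and 61450 bp in 67 peaks (log2 ratio 0.96). Over the joint window of 290865 bp, 58 of the 85 purmorphamine peaks did not touch a control peak and covered 22150 bp, while 4 of 50 control peaks did not touch a purmorphamine peak. The best-ranked of the new peaks, 2950 bp wide at chr8:11296200-11299149 in an intron of Col4a1, ranked 13335 and lay 3651 bp from the nearest control peak. The 2 windows overlap, so these are not 2 separate observations. In Shh-/- limb the pair had less cover than in WT, with log2 ratios of -0.64 and -0.77, neither past 2-fold.

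Ccn2 had 3400 bp in 5 peaks in control and 7300 bp in 8 peaks with purmorphamine, exactly 2-fold after the added 500 bp. The best-ranked purmorphamine peak without a control counterpart in all 43 windows lay there, 800 bp wide at chr10:24588750-24589549 between genes, 5893 bp before the Ccn2 start and 2101 bp from the nearest control peak, at rank 6513. Fbn1 followed with 30650 and 52206 bp (log2 ratio 0.76), where 45 of 70 purmorphamine peaks covering 13750 bp had no control counterpart. The best of these ranked 17049.

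The genes with the lowest ratios were Thbs1 (6274 to 3250 bp, log2 ratio -0.85), Mmp2 (11500 to 7250 bp, -0.63), Lum (35004 to 23104 bp, -0.59), Lox (12983 to 8550 bp, -0.58) and Tpm1 (11050 to 7550 bp, -0.52). None of the purmorphamine peaks of Thbs1, Mmp2 and Lum lacked a control counterpart, while 3, 11 and 15 control peaks in these windows had no purmorphamine counterpart. The best-ranked of those control peaks, in Mmp2, ranked 27931 of 91023. The number of peaks and the covered bp moved in opposite directions for some of the 43 genes. Vim, for one, went from 4 peaks covering 11450 bp to 11 peaks covering 8623 bp.

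**Figure D3:**
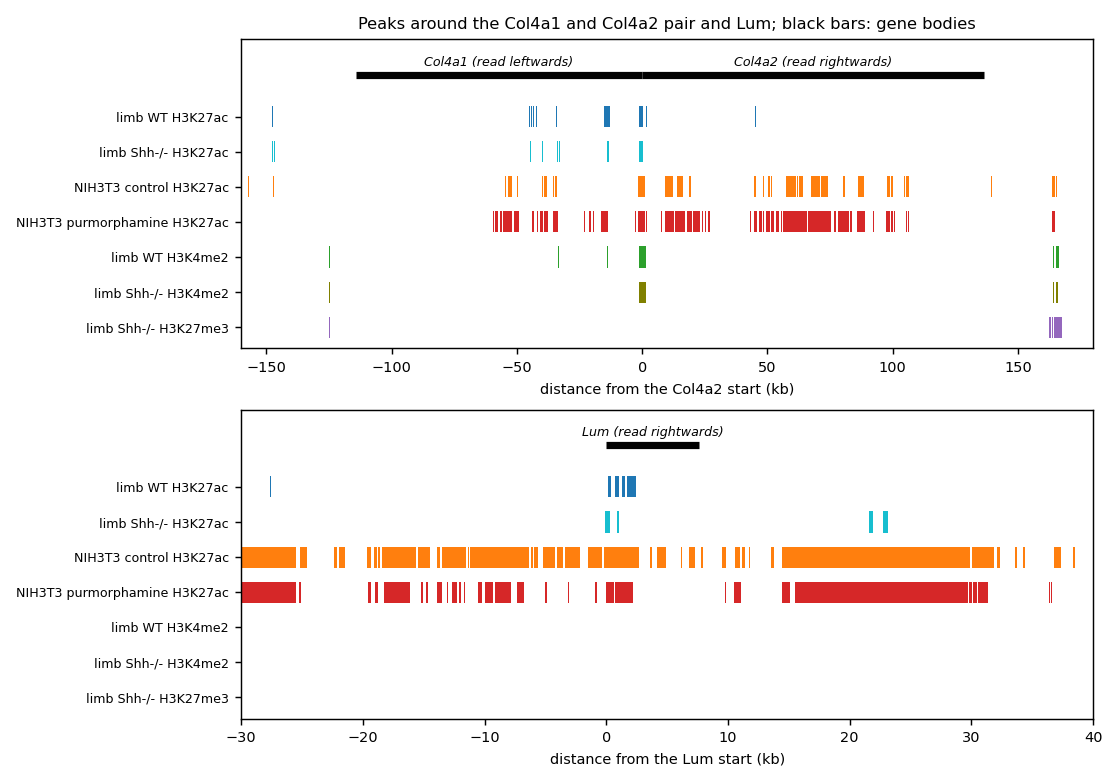
Peaks of the 7 lists (coloured blocks) by distance in kb from the Col4a2 start (upper panel) and the Lum start (lower panel), with gene bodies as black bars. Purmorphamine peaks fill more of both type IV collagen gene bodies than control peaks do. The widest NIH3T3 block on either side of Lum is nearly the same in both lists. A smaller control block, from -11.23 to -6.379 kb, is split into narrower peaks with purmorphamine.

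Peaks found in a single NIH3T3 list were mostly of low rank, in these windows as in the whole lists. Of 607 control peaks in the 43 windows, 421 (69.4%; Wilson 95% interval 65.6 to 72.9%, counting error only) overlapped a purmorphamine peak, against 58.9% over the whole list, and of 661 purmorphamine peaks 413 (62.5%, 58.7 to 66.1%) overlapped a control peak, against 63.5%. When the control list was split into 4 equal parts by rank, 147 of 148 peaks were shared in the best part and 130 of 149, 78 of 143 and 66 of 167 in the others in turn, where the whole list had 96.9%, 69.4%, 41.5% and 27.8%. In the purmorphamine list the shared peaks were 147 of 154, 120 of 172, 84 of 169 and 62 of 166, where the whole list had 95.3%, 72.6%, 49.3% and 36.8%. In the best part, 7 of 154 purmorphamine peaks and 1 of 148 control peaks were unshared. For purmorphamine this was about the same share as in the whole list. Control peaks at promoters were shared in 61 of 66 cases (92.4%; 88.3% over all genes), in gene bodies in 185 of 273 (67.8%; 52.5%) and in the flanks in 175 of 268 (65.3%; 53.6%). Purmorphamine peaks were shared in 59 of 65 cases at promoters (90.8%; 88.3%), 177 of 346 in gene bodies (51.2%; 59.6%) and 177 of 250 in flanks (70.8%; 59.1%). Places in the 43 windows were set by the 43 genes alone, and those over all genes by any protein-coding gene. A gene body or flank peak of these windows may thus lie at the promoter or in the body of another gene. The paired shares by place therefore come from unlike classes. Shared control peaks had a median width of 550 bp and unshared ones 150 bp. The best-ranked control peak with no purmorphamine counterpart was 250 bp wide, upstream of Fbln2 at chr6:91196950-91197199, ranked 19502 and lay 101 bp from a purmorphamine peak.

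The DNA of the best-ranked unshared peak of each NIH3T3 list in the 43 windows was read from the mm10 plus strand. Shown are the central 300 bases of the Ccn2 peak (purmorphamine-only, chr10:24589000-24589299) and 300 bases centred on the Fbln2 peak (control-only, chr6:91196925-91197224). Any of the motifs above would stand in capitals.
purmorphamine-only: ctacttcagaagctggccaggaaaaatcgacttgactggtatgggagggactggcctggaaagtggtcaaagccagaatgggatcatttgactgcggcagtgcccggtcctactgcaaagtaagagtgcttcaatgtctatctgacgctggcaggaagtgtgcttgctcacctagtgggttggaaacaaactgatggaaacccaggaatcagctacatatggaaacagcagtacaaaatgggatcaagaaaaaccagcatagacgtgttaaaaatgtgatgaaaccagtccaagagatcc
control-only: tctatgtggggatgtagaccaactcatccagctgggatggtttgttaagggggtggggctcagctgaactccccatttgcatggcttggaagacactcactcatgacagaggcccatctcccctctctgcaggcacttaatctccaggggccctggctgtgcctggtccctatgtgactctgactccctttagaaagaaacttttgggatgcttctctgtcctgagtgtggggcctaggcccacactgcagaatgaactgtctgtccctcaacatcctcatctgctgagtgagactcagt
Neither held any of the motifs. In the central 300 bases of the 248 unshared purmorphamine peaks of the 43 windows, GACCACCCA was present in 1 (0.403%), against 3 of the 413 shared ones (0.726%) and 0.326% of the whole list. An AP-1 site was present in 13 unshared (5.24%) and 34 shared peaks (8.23%), against 6.81% of the whole list, and GGAATG in 38 (15.3%) and 88 (21.3%), against 16.3%.

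NIH3T3 control peaks were shared with WT limb most often at promoters, in these windows as over all genes. In these windows most shared peaks nevertheless lay elsewhere. Of the 607 NIH3T3 control peaks, 77 (12.7%, 10.3 to 15.6%) overlapped a WT limb peak, against 18.5% over the whole list. The best-ranked control peak with no WT limb counterpart was 4550 bp wide, at chr3:90585850-90590399 over the start of S100a2 and 13372 bp before that of S100a4, and ranked 180. Shared control peaks were 28 of 66 at promoters (42.4%; 57.2% over all genes), 27 of 273 in gene bodies (9.89%; 10.9%) and 22 of 268 in flanks (8.21%; 9.36%). In the other direction, 108 of 183 WT limb peaks (59.0%, 51.8 to 65.9%) overlapped an NIH3T3 control peak, against 38.2%. They were 27 of 31 at promoters (87.1%; 87.3% over all genes), 44 of 102 in gene bodies (43.1%; 25.5%) and 37 of 50 in flanks (74.0%; 30.3%). The NIH3T3 list covered more of these windows than of others, as given above, and its part in that share was not tested. The shares over all genes again place peaks by any protein-coding gene, so the paired shares by place come from unlike classes.

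**Figure D4:**
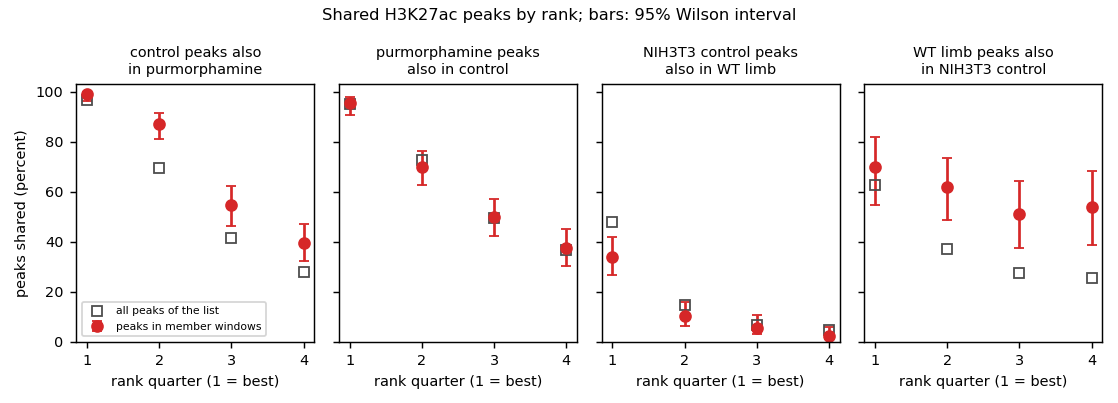
Percent of H3K27ac peaks in the 43 windows (red, with 95% Wilson intervals) and of all peaks of the same list (grey squares) that overlap a peak of the other list, with each list split into 4 equal parts by rank. Sharing between control and purmorphamine is 147 of 148 peaks in the best part of the control list and 66 of 167 in the last, while in the WT limb list 21 of 39 peaks of the last part still overlap an NIH3T3 control peak.

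Loss of Shh was accompanied by small differences in limb H3K27ac at these genes. The median log2 ratio of Shh-/- over WT was -0.14 (95% interval of the median -0.38 to 0.09, 41 genes with a peak), against -0.21 over 14795 genes, and the Shh-/- list is shorter. No gene had at least 2-fold more covered bp (background 0.500%) and 1, Col14a1, had at least 2-fold fewer (background 4.76%), with 900 bp in 3 peaks in WT and 150 bp in 1 peak in Shh-/-. The next lowest ratios were those of Thbs1 (-0.93), Postn (-0.85), Col4a2 (-0.77), and Eln and Acta2 with equal values (-0.68), and Thbs1, Eln and Acta2 had 450, 300 and 300 bp in WT and none in Shh-/-. The highest were those of Sparc (150 to 600 bp, 0.76), S100a4 (500 to 1000 bp), Thbs2 (0.30), Loxl1 (0.28) and Myl9 (0.28). Col14a1, Thbs1, Eln, Acta2, Sparc, S100a4, Thbs2, Loxl1 and Myl9 had at most 1000 covered bp in either list, so a few narrow peaks set their ratios.

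Promoter H3K27ac was called in 20 of the 43 genes in WT and in 20 in Shh-/-, though not in the same 20. Col5a1 had a promoter peak in WT only (background 4.85%) and Col12a1 in Shh-/- only (background 1.96%). Of 183 WT peaks in the windows, 100 (54.6%, 47.4 to 61.7%) overlapped a Shh-/- peak, against 51.5% over the whole list, and of 173 Shh-/- peaks 102 (59.0%, 51.5 to 66.0%) overlapped a WT peak, against 61.6%. The best-ranked WT peak with no Shh-/- counterpart was 750 bp wide in an intron of Lum, at chr10:97566800-97567549, ranked 5988 and lay 651 bp from a Shh-/- peak. The best-ranked Shh-/- peak with no WT counterpart was 400 bp wide in an intron of Sparc, at chr11:55417800-55418199, ranked 7935 and lay 10551 bp from a WT peak.

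H3K4me2 had a median log2 ratio of Shh-/- over WT of -0.09 (95% interval of the median -0.28 to 0.03, 40 genes with a peak), against -0.12 over 16878 genes. No gene had at least 2-fold more covered bp (background 0.0889%) and 1, Myl9, had at least 2-fold fewer (background 0.610%), with 850 bp in WT and 100 bp in Shh-/-. Promoter H3K4me2 was present at 35 of the 43 genes in WT and 32 in Shh-/- (61.2% and 60.7% of all genes).

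A second list of 51 other matrix and contractile genes, such as laminins, nidogens, prolyl and lysyl hydroxylases, integrins and actin-binding proteins, was described in the same way. In WT limb 38 of the 51 promoters carried H3K27ac (74.5%), against 20 of the 43, and in NIH3T3 control 49 did. The shares in brackets below are those of all genes with a peak in either list. NIH3T3 control over WT limb had a median log2 ratio of 1.47, with 29 genes at least 2-fold higher (49.5%) and none lower (6.39%). Purmorphamine over control had a median of -0.11, with 3 genes at least 2-fold higher (3.12%) and 4 lower (4.67%). Shh-/- over WT had a median of -0.09, with none higher (0.500%) and 2 lower (4.76%).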

How the data were processed

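Peaks were called by the authors with CisGenome 2.1.0 from both replicates of a condition pooled against input, after alignment to mm10 (Bowtie2 2.2.5 per the labels), so these lists do not let replicates be compared and no test between conditions was run. The study's own tests on reads per replicate were not used here. The files deposited by the authors give each peak's rank, position, FDR (a q-value), peak statistic (maxT, a score) and highest log2 ratio over input. Only rank, position and, for 1 alternative, FDR were used in the results, and peaks off the assembled chromosomes were left out. No peak ran past a chromosome end of GRCm38.

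Windows were gene records of GENCODE M21 (protein-coding) with 20 kb on either side. Covered bp were clipped to the window, 500 bp were added before log2 ratios, and a ratio of 2 was called. Peaks were shared if they overlapped by at least 1 bp. Shares carry Wilson 95% intervals (counting error only), and medians the binomial interval of the order statistics. Overlap code (Python 3.11, numpy 2.4.6) was tested on simulated data against bedtools 2.31.1. The members, the other gene lists and the comparisons were chosen with earlier results of these data known. Named in detail were, per H3K27ac comparison, the 5 highest and 5 lowest genes by log2 ratio and the best of the 3 best-ranked unshared peaks listed in either direction, and, per list, the best-ranked peak.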

Additional observations from a re-analysis of the deposited data

How the results depend on the processing

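Lists were cut to equal size or to the better-ranked 50%, peaks restricted to FDR under 0.05, windows changed to the gene body alone or with 5 or 50 kb, peaks over other genes' starts left out, the added bp changed to 100 or 2000, and promoter and overlap definitions changed. Of 196 values recomputed for the comparisons, 151 stayed within their interval or 1.5 times. The FDR setting leaves the WT limb H3K27ac list and both NIH3T3 lists unchanged. Comparisons among these lists therefore repeat their values by construction under it, and these repeats count among the 151. The median for NIH3T3 control over WT limb ranged from 1.76 to 2.56, with 27 to 34 genes at least 2-fold higher (27.2 to 59.3% of all genes), and 17 to 21 promoters acetylated in NIH3T3 control and not in WT limb (10.4 to 15.6%).

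Shares of all genes stand in brackets in the order of the settings. With purmorphamine, the genes at least 2-fold higher were 2 with the better-ranked 50%, the gene body alone, 5 kb or 2000 bp added (3.63%, 2.74%, 2.94%, 1.50%), and 1 gene was 2-fold lower with 5 kb or 100 bp added (4.04%, 8.15%). For Shh-/- over WT H3K27ac, 1 gene was 2-fold higher with the better-ranked 50%, the gene body alone, 5 kb or 100 bp added (1.68%, 0.527%, 0.564%, 5.50%), and the lower genes were 4 with the better-ranked 50% (8.78%), 2 with the gene body alone, 5 kb or 50 kb (3.89%, 4.72%, 4.60%), 6 with 100 bp added (17.6%) and 0 with 2000 bp (0.264%). For H3K4me2, 1 gene was higher with the better-ranked 50% or 100 bp added (3.36%, 2.12%), and the lower ones were 6 with the better-ranked 50% (6.51%), 5 with 100 bp (3.92%), 2 with 50 kb (0.456%) and 0 with the gene body alone or 2000 bp (0.642%, 0.00592%).

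The shares of control peaks found with purmorphamine and the reverse were 81.5% and 71.2% in the better-ranked 50%, 59.1% and 52.5% when 50% of the peak had to overlap, and 85.5% and 76.5% with a gap of up to 500 bp; the reverse share was 55.9% in gene bodies alone. For WT H3K27ac peaks in Shh-/- and the reverse they were 42.6% and 50.3% with 50% overlap and 77.6% and 80.9% with the gap, and the reverse was 67.1% in the better-ranked 50%. For H3K4me2 they were 66.3% in WT with 50% overlap and 88.1% and 86.1% with the gap. NIH3T3 control peaks found in WT limb were 21.1% with equal lists, 15.8% in the better-ranked 50%, 4.94% with 50% overlap and 16.3% with the gap, and WT limb peaks in NIH3T3 control 50.4% in gene bodies alone. H3K27me3 was found in 8 gene bodies and in 9 windows of 5 kb. The share of all genes was not computed for these smaller windows, so the counts have no background to be set against. No paired analysis was possible because each list pools both replicates, and for the same reason no replicate could be left out. Beyond alternatives that use fewer peaks or bases by construction, the cause was not tested.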
